A study of Mus musculus with 6 samples.

Results

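Ribosome biogenesis factors are the proteins that make ribosomes but are not part of the finished ribosome. The 58 genes described here were chosen by name as members of this machinery, with earlier results of these data known. Each has a row in the deposited table, which lists 20323 genes. One symbol, LTV1, had a second row, which held 0 counts in every library, so the row with counts was kept. All 58 members passed the filter on low counts, which 11970 of the 20323 genes passed.

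The data are 6 RNA-seq libraries of RFB, a cell line that the labels describe as kidney fibroblasts. Cells of 3 libraries were treated with TGF-β, a cytokine that drives fibroblasts toward a matrix-producing state. Cells of the other 3 were treated with TGF-β and the chemokine CXCL10, given as a volume of 5 µl of unstated concentration. Every group thus carries TGF-β, and no library without it was analysed here, so the data speak only to what differed when CXCL10 was added. The labels name the mouse as the organism, while all 20323 row identifiers belong to human Ensembl genes, and the series text speaks of a SUV39H1 knockdown that the labels of these samples do not list. Levels are therefore levels on human gene models, and no coordinates are given.

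In every growing cell, RNA polymerase I copies the ribosomal DNA into one long precursor in the nucleolus. Small nucleolar ribonucleoproteins (snoRNPs) then modify its bases, a large assembly called the small-subunit processome folds and cuts the part that becomes the small subunit, and a separate series of factors builds the large subunit around the rest. The pathway is a major consumer of energy and is a classic target of the transcription factor MYC. In tissue fibroblasts its output sets how much protein, matrix included, the cell can make.

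Libraries held 12838106 to 15587409 counts. All 12 fibroblast markers were well expressed, with 55089 to 62522 CPM summed without CXCL10 and 52754 to 57097 CPM with it (CPM are counts relative to library sizes scaled by the TMM method). Of 10 tubular epithelial markers 5 had 0 counts in all libraries (CDH16, LRP2, SLC34A1, UMOD and AQP2), and the list summed to 21.2 to 22.7 CPM without and 19.4 to 21.3 CPM with CXCL10. The 6 endothelial markers summed to 50.4 to 51.4 and 47.7 to 51.6 CPM, with EMCN at 0, and the 7 leukocyte markers to 42.6 to 47.9 and 42.3 to 48.3 CPM, with CD3E at 0. The 5 pericyte markers summed to 407 to 517 and 337 to 443 CPM, with KCNJ8 at 0, and the 4 myofibroblast markers to 2806 to 3055 and 2283 to 2859 CPM. In the fit with libraries paired by replicate number, 2 of 3 tested myofibroblast markers were lower with CXCL10 (ACTA2 at -0.43 and CNN1 at -0.34, log2) and 0 higher, 2 of 3 tested pericyte markers were lower (NOTCH3 at -0.29 and CSPG4 at -0.25) and 0 higher, and of the 12 fibroblast markers 2 were higher and 3 lower, against 9.71% higher and 8.04% lower over all tested genes. Without pairing none of these 4 named markers was called (adjusted p = 0.184 for ACTA2, 0.376 for CNN1, 0.223 for NOTCH3 and 0.298 for CSPG4, edgeR). The part of these markers' difference in the results below was not tested. On the first principal component, which held 48.4% of the variance, TGF-β replicate 1 scored -5.54 against 28.3 and 29.5 for the other libraries of its group, and the libraries with CXCL10 scored -32.8, -9.78 and -9.67. One library without CXCL10 thus stood apart from its group, on the side of the libraries with CXCL10. Values without it are given for the list, for each class and for the members whose call it changes.

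With CXCL10 the ribosome biogenesis factors were, as a list, at slightly higher levels. The fitted log2 difference was above 0 for 53 of the 58 members (91.4%), against 48.7% of all tested genes, and its median was 0.23 for the members and -0.01 for all tested genes. No member differed by as much as 2-fold, and the largest difference was 0.61 (log2), that of RRP12. The large-subunit assembly factors had the highest median among the larger classes, at 0.29 over 19 genes, and the RNA polymerase I factors the lowest, at 0.12 over 7 genes. These medians describe the lists, and no test compared the classes with each other.

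How many members passed a test depended on whether libraries were paired by replicate number. Without pairing, 0 of 58 members and 0 of 11970 genes (0%) passed an adjusted p of 0.05 in either direction (edgeR quasi-likelihood test), and the members' smallest adjusted p was 0.161. At an unadjusted p of 0.05, 22 members were higher and 0 lower, against 10.5% and 10% of all tested genes. DESeq2 without pairing called 3 members higher (RRP12, BOP1 and DDX21) and 0 lower, against 1.44% and 1.36% of the genes. With libraries paired by number, edgeR called 24 members higher, which is 41.4% of them against 9.71% of all tested genes, and 0 lower against 8.04%. Paired DESeq2 called 12 members higher and 0 lower, against 5.71% and 3.79%. When the libraries were scaled by their totals alone, the paired fit called 16 members higher (against 7.33% of genes) and 0 lower (against 11.4%), and over all genes the split moved from 1162 higher and 962 lower to 877 and 1359. The labels state no pairing, and the replicate number was used as a block after a check on these same data, described below. "Rose" and "fell" below mean called higher and lower in the paired edgeR fit. Without pairing edgeR called none of these genes.

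The paired count also depended on the pairs used. It was 24 without both libraries of replicate 1 (against 12.7% of genes), 15 without those of replicate 2 (against 5.66%) and 12 without those of replicate 3 (against 4.46%). In these fits 0 members were lower, against 10.9%, 4.67% and 3.02% of genes. So few libraries remain in them that their p-values, here and below, rest largely on variance shared over genes. The one without replicate 1 called 1533 genes higher, more than the 1162 of the paired fit of all libraries. Calls from these fits are therefore given as descriptions. Without both libraries of replicate 1 and with no pairing, 23 were higher (against 11.9%) and 0 lower (against 10%). Dropping TGF-β replicate 1 from the unpaired edgeR fit gave 26 members higher and 0 lower, against 10.7% and 8.61% of the genes tested in that fit. The same fit without any other single library gave 0 calls. Of the 24 members called in the paired fit 21 were among these 26. DDX18, NOP16 and PPAN were not (adjusted p = 0.0580, 0.0770 and 0.101 there), while BRIX1, NHP2, PES1, RRP1 and WDR43 were called without TGF-β replicate 1 and not in the paired fit of all libraries. In the paired fit of all libraries and in each of the 3 paired fits without a replicate number, 11 members were called higher: RRP12, BOP1, RRS1, MRTO4, EBNA1BP2, NIP7, GNL2, NOLC1, BMS1, DDX21 and NCL.

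TGF-β replicate 1 was itself high in these genes. It was the highest of the 3 libraries of its group for 48 of 58 members (82.8%), against 39.1% of all tested genes. The median member stood 0.28 (log2) above the mean of replicates 2 and 3 in that group, a shift larger than the median difference with CXCL10. Among the libraries with CXCL10, replicate 1 was again the highest for 43 members (74.1%, against 37.9%), with a median excess of 0.19. Between replicates 2 and 3 of both groups alone, the median member was 0.26 higher with CXCL10. The part that differences between replicate 1 and the other libraries play in the result was not tested.

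**Figure D1:**
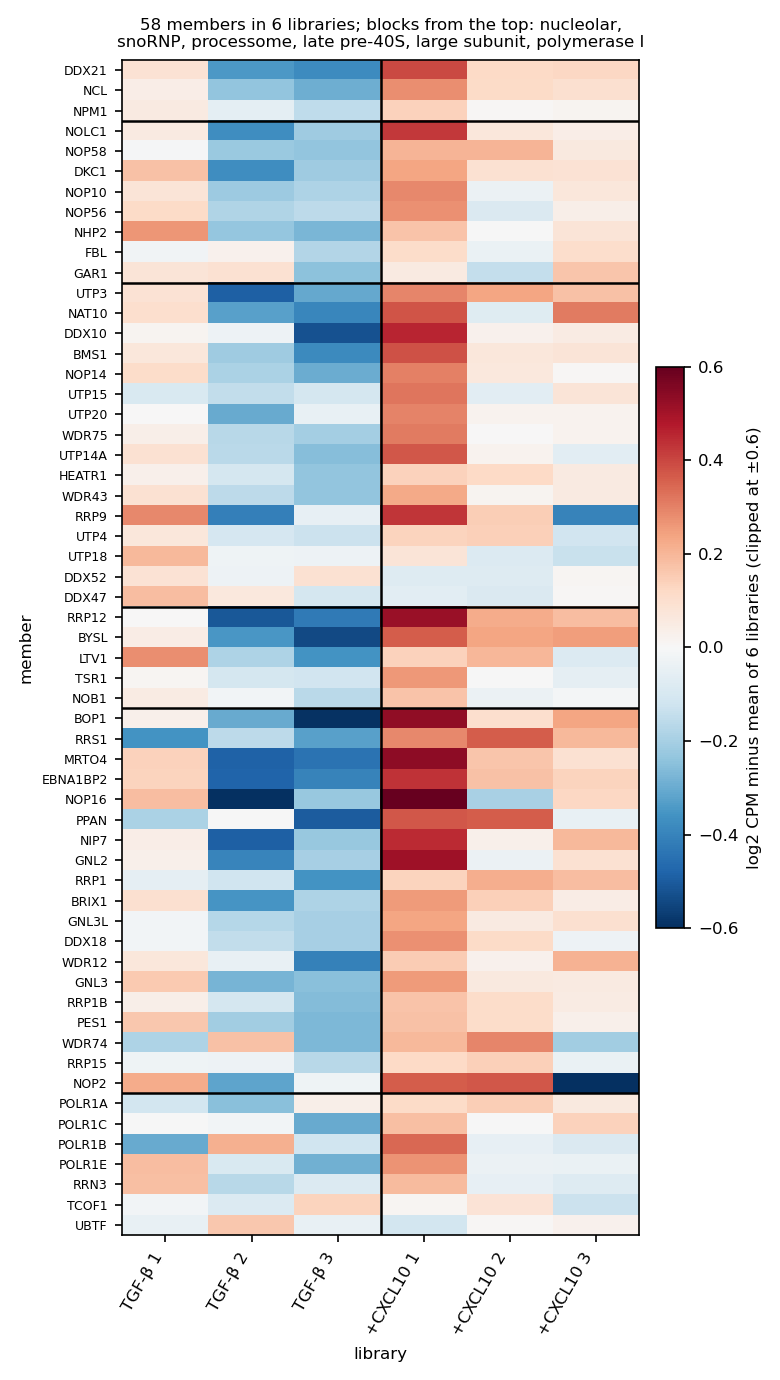
Level of each of the 58 members (rows, grouped by role) in each of the 6 libraries (columns), as log2 scaled CPM minus the gene's mean over the 6 libraries, clipped at 0.6 in both directions. Most rows are lowest in TGF-β replicates 2 and 3 and highest in CXCL10 replicate 1, and TGF-β replicate 1, the highest of its group for 48 members, lies between them.

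Ranges over libraries show the same arrangement. For 17 members (29.3%, against 11.1% of all tested genes) every library with CXCL10 lay above every library without it, and for 0 members (against 11.2%) below. For 43 members (74.1%, against 25.1%) TGF-β replicates 2 and 3 both lay below all 3 libraries with CXCL10. In each of the 3 same-numbered pairs 45 members were higher with CXCL10 (77.6%, against 24.7%), and 2 were lower in each (3.45%, against 25.5%).

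The members were chosen as ribosome biogenesis factors, most of which work in the nucleolus, and the annotation follows that choice. The deposited annotation gives the nucleolus as a component for 53 of 58 (91.4%), against 6.48% of tested genes. The 5 without it are DDX10, LTV1, NOB1, RRP15 and POLR1C. Ribosomal RNA processing is annotated for 37 members. Levels per length ranged widely, from a mean of 1.85 FPKM (fragments scaled by gene length and library size) for RRP15 to 288 for NPM1, with a median of 10.6 FPKM, against 8.01 for all tested genes. By class the median level was 26.4 FPKM for the snoRNP factors, 10.6 for the large-subunit factors, 8.96 for the processome and 6.88 for the RNA polymerase I factors.

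The 3 abundant nucleolar proteins act at several steps: NCL (nucleolin) binds the precursor RNA, NPM1 (nucleophosmin) chaperones assembly and shuttles particles, and DDX21 is a DEAD-box RNA helicase that also acts at RNA polymerase I transcription. DDX21 (ENSG00000165732) was measured at 160, 118 and 116 CPM in TGF-β replicates 1 to 3 and at 198, 163 and 164 CPM with CXCL10. The groups did not overlap, but replicate 1 without CXCL10 came within a few CPM of the lowest library with it. The paired log2 difference was 0.42 (SE 0.05, adjusted p = 0.00015, edgeR), the unpaired adjusted p was 0.161, and DESeq2 without pairing gave 0.0444. NCL (ENSG00000115053) stood at 283, 233 and 224 CPM without CXCL10 and at 334, 298 and 293 CPM with it. NCL rose by 0.33 (SE 0.05, adjusted p = 0.000572 paired, 0.161 unpaired, edgeR), and its groups did not overlap. NPM1 (ENSG00000181163), the most abundant member, gave 401, 371 and 348 CPM and then 426, 388 and 390 CPM. Its groups overlapped and its difference of 0.11 (SE 0.05) was not called (adjusted p = 0.140 paired), although without both libraries of replicate 1 the paired fit called it at 0.12 (adjusted p = 0.0292). Unpaired and without TGF-β replicate 1, DDX21 and NCL were called at 0.58 and 0.43 (adjusted p = 0.00151 and 0.00201, edgeR), and NPM1 was not at 0.16 (adjusted p = 0.0838). NPM1 has many processed pseudogenes, and reads could be shared among near-identical copies.

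The snoRNP class has a pair of enzymatic complexes. The box C/D particles add methyl groups through FBL (fibrillarin) held by NOP56 and NOP58, and the H/ACA particles make pseudouridine through DKC1 (dyskerin) with NHP2, NOP10 and GAR1. NOLC1 is a chaperone that binds both. Of the 8 members 3 rose (NOLC1, NOP58 and DKC1), which is 37.5% against 9.71% of all tested genes, 0 fell against 8.04%, and 5 were not called. The paired fit called only 1, NOLC1, without both libraries of replicate 2 or of replicate 3 (against 5.66% and 4.46% of all tested genes). The class median of 0.18 became 0.33 without TGF-β replicate 1, where the unpaired fit called 4, the same 3 and NHP2. NOLC1 (ENSG00000166197) was at 68.6, 51.1 and 57.0 CPM without CXCL10 and at 88.7, 69.4 and 67.9 CPM with it. Its TGF-β replicate 1 lay between CXCL10 replicates 2 and 3, so the groups overlapped, and the paired difference was 0.36 (SE 0.07, adjusted p = 0.00208; 0.188 unpaired).

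Within the box C/D core the scaffold NOP58 (ENSG00000055044) was higher in all 3 libraries with CXCL10, at 32.1, 32.1 and 29.0 CPM against 27.7, 23.8 and 23.6 CPM. It rose by 0.31 (SE 0.09, adjusted p = 0.0282 paired; 0.162 unpaired). Its partner NOP56 differed by 0.15 (SE 0.07, adjusted p = 0.164 paired) and the methyltransferase FBL by 0.11 (SE 0.09, adjusted p = 0.446 paired), neither of them called. FBL was at 30.0, 30.9 and 26.9 CPM and then at 32.8, 29.6 and 32.7 CPM, with overlapping groups. Among the H/ACA proteins DKC1 (ENSG00000130826) was at 69.4, 47.5 and 53.1 CPM and then 72.4, 65.6 and 65.3 CPM. TGF-β replicate 1 exceeded 2 of the libraries with CXCL10 there, and the paired difference was 0.27 (SE 0.08, adjusted p = 0.0291; 0.285 unpaired). NOP10, NHP2 and GAR1 differed by 0.22, 0.16 and 0.05 in the paired fit, with adjusted p values of 0.159, 0.347 and 0.925. Unpaired and without TGF-β replicate 1, NHP2 was called at 0.34 (adjusted p = 0.0458, edgeR).

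The small-subunit processome members numbered 16, of which 5 rose (UTP3, NAT10, BMS1, NOP14 and HEATR1), or 31.2% against 9.71% of all tested genes, 0 fell against 8.04%, and 11 were not called. The paired count was 3 without the libraries of replicate 2 (against 5.66% of all tested genes) and 1 (BMS1) without those of replicate 3 (against 4.46%). A count of 1 among 16 genes is close to that last share. Among the 3 was DDX10, which the fit of all libraries did not call. The class median of 0.23 became 0.30 without TGF-β replicate 1, where the unpaired fit called the same 5 and WDR43 (0.30, adjusted p = 0.0499). UTP3 (ENSG00000132467), a nucleolar processome component, was measured at 24.8, 16.6 and 18.9 CPM without CXCL10 and at 28.6, 27.5 and 26.4 CPM with it. No library of one group reached into the other, and UTP3 rose by 0.47 (SE 0.11, adjusted p = 0.0100 paired; 0.161 unpaired). BMS1 (ENSG00000165733), a GTPase of the processome, gave 70.6, 58.1 and 51.6 CPM and then 87.7, 70.5 and 71.0 CPM. TGF-β replicate 1 was level with the lowest libraries with CXCL10, and BMS1 rose by 0.35 (SE 0.06, adjusted p = 0.00229 paired; 0.188 unpaired). BMS1 has pseudogene copies, whose reads could not be told apart here.

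NAT10 (ENSG00000135372), the enzyme that acetylates cytidines of the small-subunit RNA, was at 34.2, 25.5 and 24.3 CPM and then 41.5, 30.4 and 39.6 CPM. It rose by 0.41 (SE 0.10, adjusted p = 0.0122 paired; 0.196 unpaired), with TGF-β replicate 1 above CXCL10 replicate 2. HEATR1 (ENSG00000119285), a large scaffold that also promotes RNA polymerase I transcription, stood at 66.3, 60.3 and 55.0 CPM and then at 71.4, 70.3 and 67.2 CPM, with no overlap. It rose by 0.20 (SE 0.07, adjusted p = 0.0454 paired; 0.222 unpaired). UTP20, another scaffold, was at 43.5, 35.2 and 42.1 CPM and then 53.3, 44.0 and 43.9 CPM, and was not called (0.23, SE 0.08, adjusted p = 0.0643 paired). The 3 processome members below 0 were DDX47 (-0.10), DDX52 (-0.10) and UTP18 (-0.09), named after their values were seen, and none was called. DDX47 and DDX52 are DEAD-box helicases, like DDX10, which differed by 0.35 in the paired fit without passing (adjusted p = 0.0650), and by 0.50 in the paired fit without replicate 2, where it passed (adjusted p = 0.0209).

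Late steps of the small subunit, including export and the last cut, are carried out by RRP12, BYSL, LTV1, TSR1 and NOB1. RRP12 (ENSG00000052749), which is needed for export of precursor particles, was measured at 40.2, 28.3 and 30.0 CPM without CXCL10 and at 57.6, 46.9 and 45.7 CPM with it. The mean was 32.8 ± 6.46 CPM and then 50.1 ± 6.53 CPM (SD, n = 3 per group), and the groups did not overlap. RRP12 had the largest difference of all members, with a paired log2 value of 0.62 (SE 0.08, adjusted p = 0.00015) and an unpaired adjusted p of 0.161. DESeq2 without pairing gave it an adjusted p of 0.0108. In the authors' deposited table it was the only member with an adjusted p under 0.05, at 0.0192, with a log2 ratio of 0.51. Over all 20323 genes there, 112 were higher and 97 lower at that threshold.

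BYSL (ENSG00000112578, bystin), which joins the small-subunit precursor, stood at 12.2, 9.28 and 8.12 CPM and then at 15.2, 13.9 and 14.1 CPM. The libraries with CXCL10 were all higher, and BYSL rose by 0.56 (SE 0.14, adjusted p = 0.0132 paired; 0.161 unpaired). The endonuclease NOB1, which makes the last cut of the small-subunit RNA, was at 30.1, 28.8 and 26.0 CPM and then 32.8, 28.4 and 28.9 CPM. Its groups overlapped and its paired difference of 0.08 (SE 0.09, adjusted p = 0.564) was not called. LTV1 and TSR1 differed by 0.17 and 0.14, also without a call. Over the 5 genes 2 rose and 0 fell (against 9.71% and 8.04% of all tested genes), and without replicate 3 only RRP12 was called (against 4.46%). Their median was 0.15, and it was 0.36 without TGF-β replicate 1, where RRP12 and BYSL were again the 2 called.

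**Figure D2:**
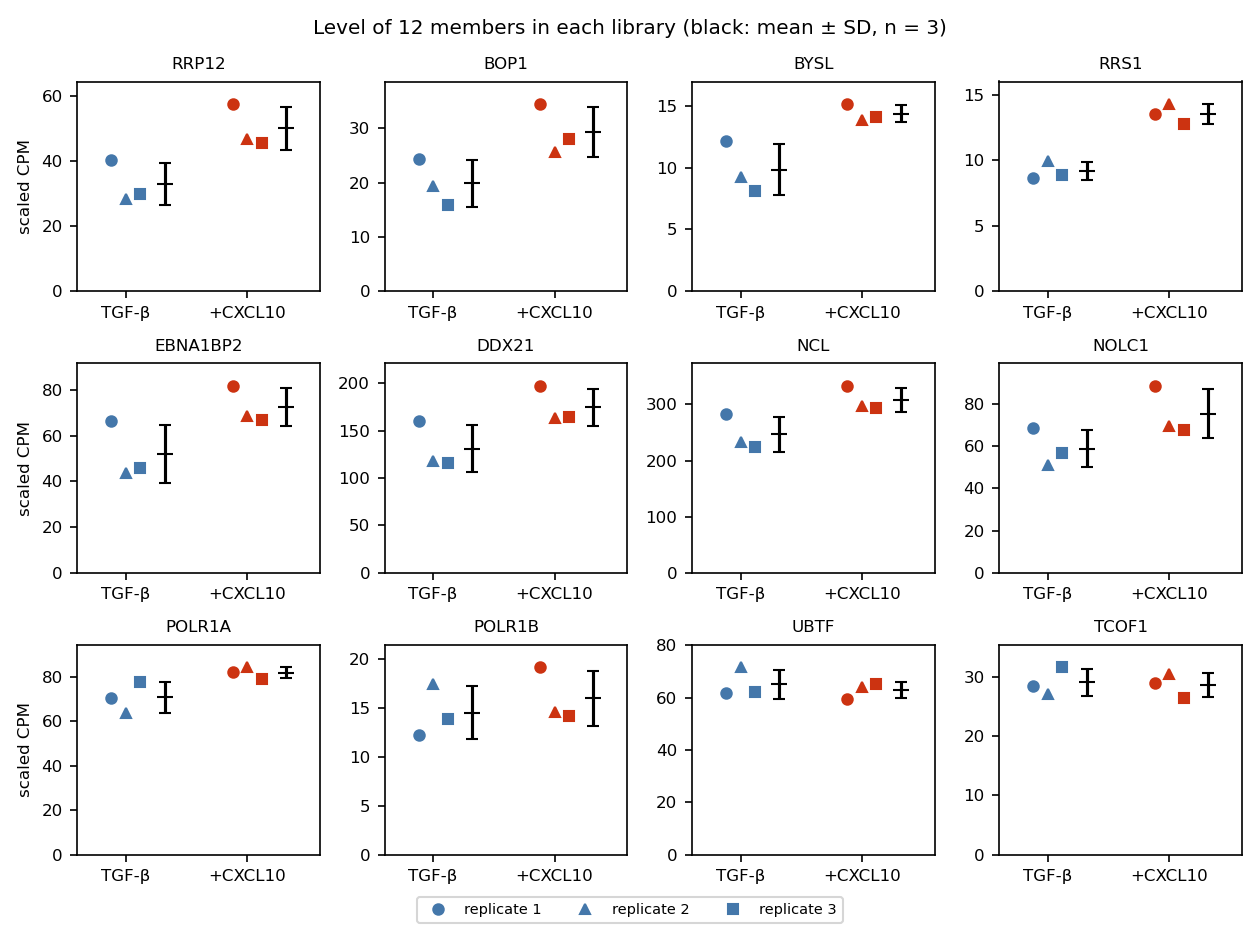
Scaled CPM of 12 members in each library, with circles, triangles and squares for replicates 1, 2 and 3 and black bars for the mean ± SD (n = 3). For RRP12, BOP1, BYSL, RRS1, EBNA1BP2, DDX21 and NCL all libraries with CXCL10 lie above those without, for NOLC1 TGF-β replicate 1 reaches the libraries with CXCL10, and of the RNA polymerase I members in the lower row only POLR1A has groups that do not overlap.

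Most large-subunit assembly factors were called in the paired fit of all libraries. Of 19 members 12 rose (BOP1, RRS1, MRTO4, EBNA1BP2, NOP16, PPAN, NIP7, GNL2, GNL3L, DDX18, GNL3 and RRP1B), which is 63.2% against 9.71% of all tested genes, 0 fell against 8.04%, and 7 were not called. All 19 had a fitted difference above 0. The paired fit called 10, 7 and 6 of them without both libraries of replicate 1, 2 or 3 (against 12.7%, 5.66% and 4.46% of genes). The class median of 0.29 became 0.41 without TGF-β replicate 1, where the unpaired fit again called 12, with BRIX1 (0.42, adjusted p = 0.0450), PES1 and RRP1 in place of DDX18, NOP16 and PPAN. BOP1 (ENSG00000261236) forms the PeBoW complex with PES1 and WDR12, which is needed to process the large-subunit RNA. It was at 24.4, 19.4 and 15.9 CPM without CXCL10 and at 34.5, 25.6 and 28.1 CPM with it. The groups did not overlap, and the paired difference was 0.57 (SE 0.10, adjusted p = 0.00196; 0.161 unpaired, and 0.0407 with DESeq2 unpaired). Its partners had smaller fitted differences. PES1 was at 67.3, 52.1 and 49.9 CPM and then 68.0, 65.0 and 61.4 CPM (0.21, SE 0.07, adjusted p = 0.0725 paired), and WDR12 differed by 0.25 (adjusted p = 0.199 paired). Neither partner was called in that fit. PES1 was called in the paired fit without replicate 1 (0.31, adjusted p = 0.00199) and in the unpaired fit without TGF-β replicate 1 (0.35, adjusted p = 0.0148), and WDR12 in neither. Whether they differed from BOP1 was not tested.

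RRS1 (ENSG00000179041) helps to bring the small ribosomal RNA of the large subunit into the particle. It was measured at 8.66, 9.96 and 8.87 CPM without CXCL10 and at 13.6, 14.3 and 12.7 CPM with it. Here TGF-β replicate 1 was the lowest library of all, unlike in most members. RRS1 rose by 0.56 (SE 0.13, adjusted p = 0.00941 paired; 0.161 unpaired, and 0.0508 with DESeq2 unpaired). EBNA1BP2 (ENSG00000117395), a nucleolar factor of large-subunit assembly, was at 66.5, 43.5 and 46.0 CPM and then 81.8, 68.5 and 66.6 CPM. Its groups were separated by only a small margin, since TGF-β replicate 1 nearly equalled CXCL10 replicate 3, and it rose by 0.49 (SE 0.08, adjusted p = 0.000618 paired; 0.162 unpaired).

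The nucleolar GTPase GNL3 (nucleostemin, ENSG00000163938), known from proliferating and stem cells, was at 66.4, 49.1 and 50.1 CPM and then 71.2, 62.0 and 61.9 CPM. TGF-β replicate 1 lay above 2 libraries with CXCL10, and the paired difference was 0.24 (SE 0.07, adjusted p = 0.0290; 0.300 unpaired). Its relatives GNL2 and GNL3L also rose, by 0.38 and 0.26. MRTO4, a placeholder for the ribosomal stalk protein, rose by 0.52, NIP7 by 0.45, NOP16 by 0.45 and PPAN by 0.46 in the paired fit. PPAN can be read through into its neighbour P2RY11, so that its reads may be shared. The helicase DDX18 rose by 0.24 and RRP1B by 0.22, while its paralog RRP1 at 0.35 missed the threshold (adjusted p = 0.0588 paired) and passed it without both libraries of replicate 1 (0.44, adjusted p = 0.0246 paired) and, unpaired, without TGF-β replicate 1 (0.41, adjusted p = 0.0490).

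NOP2, which methylates the large-subunit RNA, varied widely within the CXCL10 group. It was at 31.3, 21.5 and 26.3 CPM without CXCL10 and at 34.4, 34.6 and 17.5 CPM with it, so that the lowest of all 6 libraries was CXCL10 replicate 3. The paired difference was 0.10 (SE 0.17, adjusted p = 0.725). By FPKM NOP2 was at 20.2, 16.1 and 8.51 in the libraries with CXCL10, so the low value in replicate 3 was present on both scales. Without both libraries of replicate 3 the paired difference was 0.41, without those of replicate 2 it was -0.20, and neither was called (adjusted p = 0.0831 and 0.428).

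**Figure D3:**
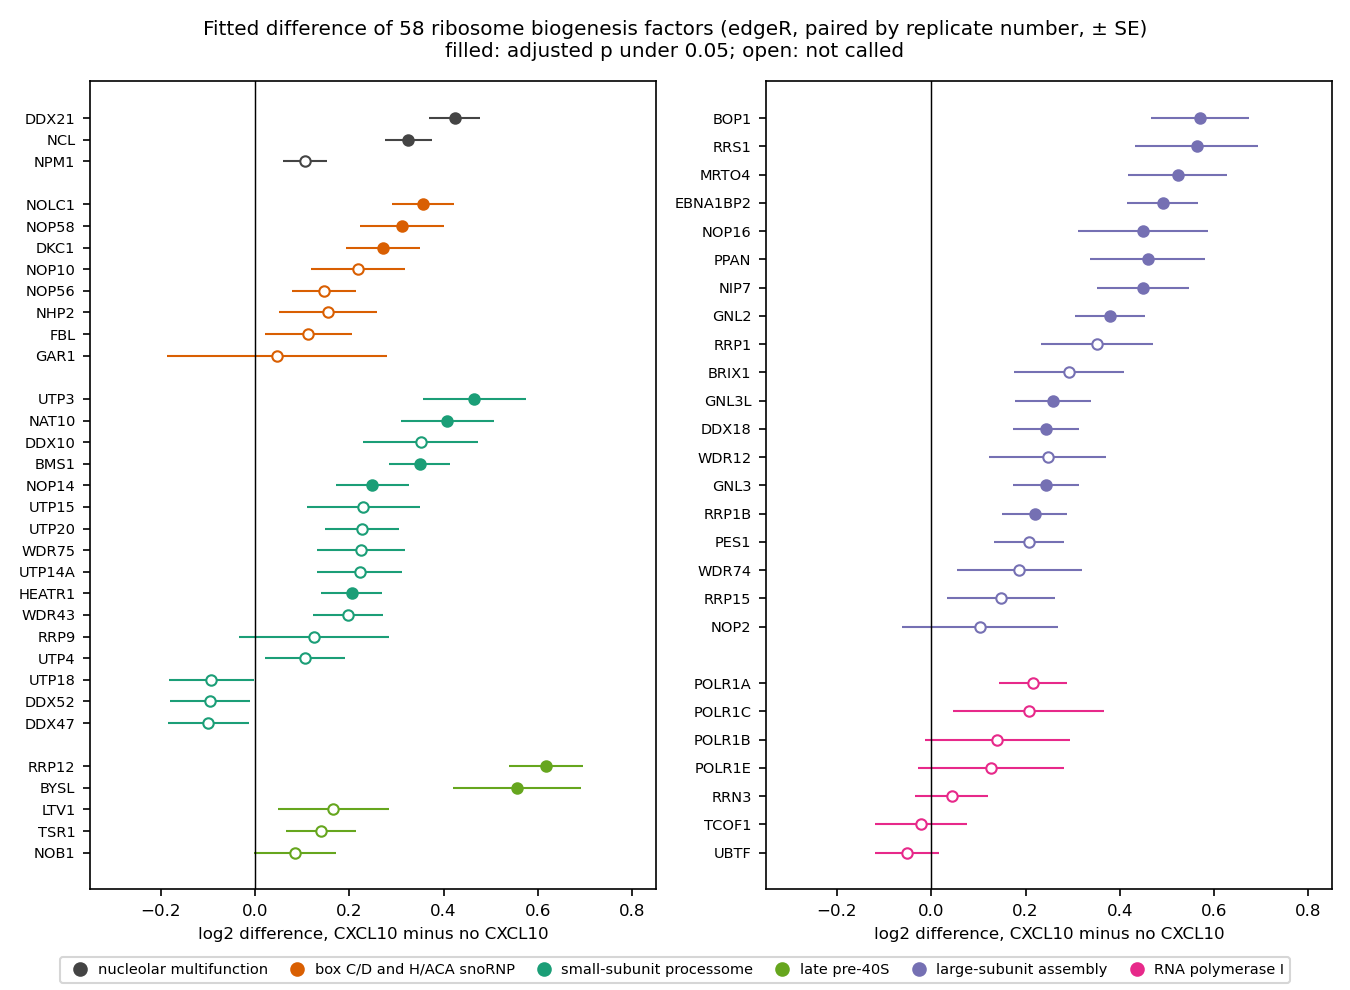
Paired log2 difference of each member (CXCL10 minus no CXCL10, edgeR, bars ± SE), coloured by role, with filled points for an adjusted p under 0.05. The 24 filled points all lie right of 0, 12 of them among the 19 large-subunit factors and 0 among the 7 RNA polymerase I factors. Over all tested genes 9.71% were called higher and 8.04% lower, and 0 among 7 genes is close to those shares. No test compared the classes.

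The RNA polymerase I class holds the catalytic subunits POLR1A and POLR1B, the shared subunit POLR1C, POLR1E, the promoter factor UBTF, the initiation factor RRN3 and the nucleolar protein TCOF1 (treacle). With all libraries 0 of the 7 rose or fell in the paired edgeR fit, against 9.71% and 8.04% of all tested genes, shares at which fewer than 1 call in each direction would be counted among 7 genes. The unpaired edgeR fit and unpaired DESeq2 also called 0, and in the unpaired edgeR fit 1 of them, POLR1A, had an unadjusted p under 0.05. Without both libraries of replicate 1, or of replicate 3, the paired fit called 1 (against 12.7% and 4.46% of genes), which was POLR1A both times. POLR1A (ENSG00000068654) was at 70.4, 63.9 and 77.9 CPM without CXCL10 and at 82.3, 84.3 and 79.2 CPM with it. Its groups did not overlap, and its paired difference of 0.22 (SE 0.07) fell just short of the threshold (adjusted p = 0.0548; 0.208 unpaired). It was called in the paired fits without replicate 1 (0.21, adjusted p = 0.0232) and without replicate 3 (0.32, adjusted p = 0.0356), and not in the one without replicate 2 (0.12, adjusted p = 0.431). POLR1B was at 12.2, 17.4 and 13.8 CPM and then 19.1, 14.5 and 14.2 CPM, with overlapping groups, a paired difference of 0.14 (SE 0.15, adjusted p = 0.586) and -0.12 without the libraries of replicate 1. POLR1C, at 8.24, 8.16 and 6.69 CPM and then 9.35, 8.22 and 9.07 CPM, differed by 0.21 (SE 0.16, adjusted p = 0.423 paired).

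UBTF (ENSG00000108312), which keeps ribosomal DNA open, was at 61.9, 71.5 and 62.0 CPM without CXCL10 and at 59.3, 64.2 and 65.1 CPM with it. Its groups overlapped, and the paired difference was -0.05 (SE 0.07, adjusted p = 0.666). TCOF1 stood at 28.5, 27.2 and 31.6 CPM and then at 29.0, 30.5 and 26.4 CPM, a difference of -0.02 (SE 0.10, adjusted p = 0.920 paired). RRN3, which couples RNA polymerase I to growth signals, was at 41.8, 32.9 and 34.9 CPM and then 42.1, 35.6 and 34.9 CPM, a difference of 0.04 (SE 0.08, adjusted p = 0.763 paired). The directions of UBTF, TCOF1, RRN3 and POLR1B changed when single libraries were left out. RRN3 has pseudogenes, so its reads are uncertain. The class median of 0.12 became -0.01 without CXCL10 replicate 1, and 0.15 without TGF-β replicate 1.

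**Figure D4:**
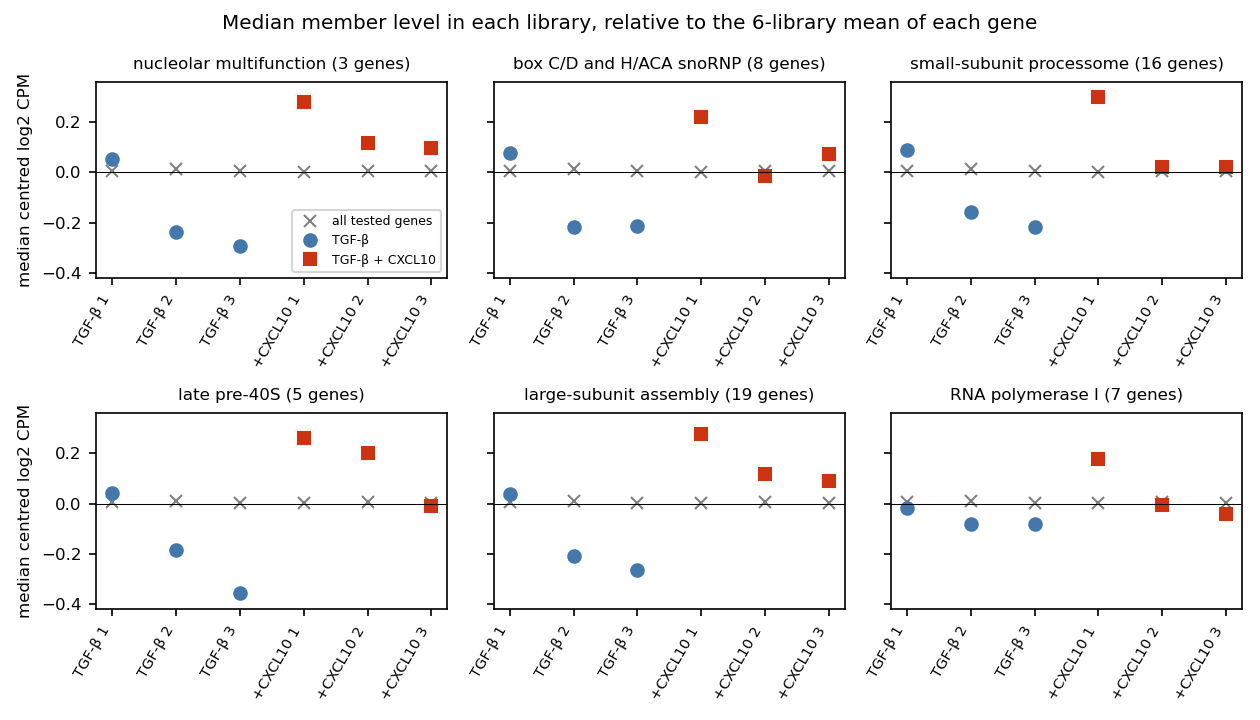
Median over the members of each role, in each library, of log2 scaled CPM minus the gene's 6-library mean, with crosses for all tested genes. In the large-subunit class the medians were 0.04, -0.21 and -0.26 without CXCL10 and 0.28, 0.12 and 0.09 with it, while for RNA polymerase I they were -0.02, -0.08 and -0.08 and then 0.18, 0.00 and -0.04.

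Other factors of the pathway, on lists of 137 genes also chosen with earlier results of these data known, were described in the same way. None of the 137 is among the 58. Their median unpaired difference was 0.15, and in the paired fit 27 were called higher (19.7%, against 9.71% of all tested genes) and 3 lower (2.19%, against 8.04%). The higher calls numbered 35, 9 and 7 of 137 without replicates 1, 2 and 3 (against 12.7%, 5.66% and 4.46% of genes). Without replicate 2 or 3 the share of the 137 was thus close to that of all tested genes. Of 41 other small-subunit factors 11 rose (26.8%) and 0 fell, with the processome proteins WDR36 at 0.43 (SE 0.08, adjusted p = 0.00215 paired) and PDCD11 at 0.33 (SE 0.06). Of 42 other large-subunit factors 10 rose (23.8%) and 1 fell (2.38%). NOC2L rose by 0.44 (SE 0.07), and NOP53 was the one that fell, with a paired value of -0.31 (SE 0.06, adjusted p = 0.00342). NOP53 was at 85.3, 109 and 105 CPM without CXCL10 and 73.4, 90.2 and 77.9 CPM with it. Of 13 snoRNP assembly factors 3 rose (23.1%) and 0 fell, including both AAA+ ATPases RUVBL1 (0.39) and RUVBL2 (0.30). The paired fit called 0 of the 13 without replicate 2 or 3 (against 5.66% and 4.46% of genes). The unpaired difference was below 0 for 5 of the 13.

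As among the RNA polymerase I members, 0 of the 15 other RNA polymerase I factors were called in either direction in the paired fit. Over all tested genes 9.71% and 8.04% were, shares at which few calls would be counted among 15 genes. The unpaired median of the 15 was 0.03, and 0.12 without TGF-β replicate 1. That library was the highest of its group for 12 of the 15 (80%, against 39.1% of all tested genes). Unpaired, 0 of the 15 had an unadjusted p under 0.05 in edgeR or an adjusted p under 0.05 in DESeq2. Without TGF-β replicate 1 unpaired edgeR called 1, POLR2L. The lowest paired p values there were those of the terminator protein TTF1 (0.31, adjusted p = 0.251) and the shared subunit POLR2L (0.21, adjusted p = 0.252). Among 26 exosome and RNase MRP genes, which trim the precursor, 3 rose (11.5%) and 2 fell (7.69%), shares close to those of all tested genes (9.71% and 8.04%). The exosome nuclease DIS3 rose by 0.30 (SE 0.06, adjusted p = 0.00656 paired), while the RNase MRP subunit RPP25 fell, at -0.41 (SE 0.08).

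**Figure D5:**
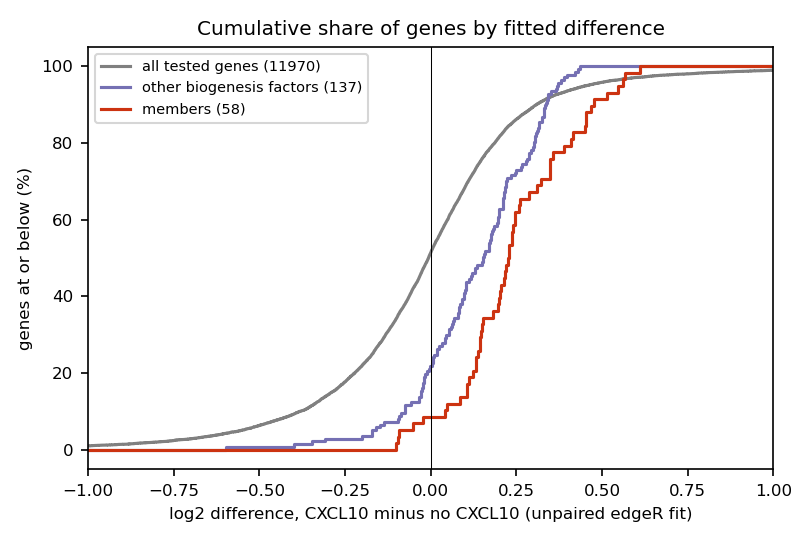
Cumulative share of genes by unpaired log2 difference (CXCL10 minus no CXCL10) for the 58 members, 137 other ribosome biogenesis factors and all 11970 tested genes. The members' curve crosses 50% at 0.23, that of the other factors at 0.15 and that of all genes at -0.01.

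The transcription factor MYC, which drives many of these genes, rose as well. MYC (ENSG00000136997) was at 37.1, 24.7 and 26.1 CPM without CXCL10 and at 52.7, 41.1 and 41.0 CPM with it. As for most members, TGF-β replicate 1 was the highest of its group. The groups did not overlap, as for 17 of the 58 members (29.3%) and 11.1% of all tested genes. MYC rose by 0.63 (SE 0.08, adjusted p = 0.000185 paired; 0.161 unpaired, and 0.0179 with DESeq2 unpaired). Of 9 tested genes of the MYC network 2 rose, MYC and the MAX-like protein MLX (0.35), and 2 fell (22.2% each, against 9.71% and 8.04% of all tested genes), with a median of -0.02. Of 18 tested proliferation genes 0 rose (edgeR, paired; against 9.71% of all tested genes) and 1 fell (5.56%, against 8.04%), the thymidylate synthase TYMS (-0.41, SE 0.13, adjusted p = 0.0386 paired), and the replication helicase subunit MCM6 at 0.23 was not called (adjusted p = 0.122). At an unadjusted p of 0.05 the unpaired fit held 1 proliferation gene higher and 1 lower, and DESeq2 called 0. Their median difference was 0.11, and it was 0.21 without TGF-β replicate 1. The part of MYC or of cell division in the members' difference was not tested.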

How the data were processed

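Per the labels, the library kit was SMARTer mRNA-Seq. Builds GRCm38 and mm10 appear in the submitters' processing notes, although the rows are human genes. Aligner, counter and strand setting: not given in the sources used here. The deposited table holds raw counts and FPKM per library, per the file headers. It also holds the authors' log2 ratio of mean FPKM and their p-value and adjusted p, whose test is not stated. Nothing in the labels says that replicates were separate cultures, so p-values measure only the spread between libraries, which may be technical.

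The test on counts was edgeR's quasi-likelihood test (version 4.0.16, R 4.3.3, TMM, filterByExpr with a minimum count of 10 and total of 15, Benjamini-Hochberg over 11970 genes). The fits were tested on simulated data, drawn from their own estimates with set changes larger than most members' differences. That test covers neither changes of the members' usual size nor the choice to pair. Log2 CPM used a prior count of 2. The design had no replicate block. As a check of pairing, each library's deviations from its group's mean were correlated with those of the library with its number, at 0.330, 0.121 and 0.163. Each is above 0.1, so the fit with the replicate number as a block is printed beside it. This pairing comes from the data, not the labels. Libraries of different numbers gave -0.223 to -0.165 where replicate 1 was one of them. Between numbers 2 and 3 they gave 0.0803 and 0.0825, not far below the same-number values of 0.121 and 0.163. The check thus mainly sets replicate 1 apart and hardly tells numbers 2 and 3 from each other. Alternatives were DESeq2 1.42.0, limma 3.58.1 on log2(FPKM + 1), scaling by totals, no filter and left-out libraries.

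Members, roles and lists were chosen with earlier results of these data known. Named genes are 25 members fixed by role, the 2 with the lowest p in each role in either fit, and 2 per further list. Other members are named after their values were seen. Of the list symbols 5 had no row. Human sequences and coordinates were not used here.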

Additional observations from a re-analysis of the deposited data

How the results depend on the processing

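With the replicate number as a block (paired fit), edgeR called 1162 genes higher and 962 lower, and 24 members higher, in place of 0 without it. DESeq2 called 172 and 163 genes and 3 members without the block, and 684 and 454 genes and 12 members with it. The block with scaling by library totals, an alternative chosen after seeing the data, gave 877 and 1359 genes and 16 members. The block without both libraries of replicate 1, 2 or 3 gave 1533, 680 and 539 genes higher, 1313, 561 and 365 lower, and 24, 15 and 12 members higher. Without both libraries of replicate 1 and with no block, also chosen after seeing the data, the counts were 1432, 1207 and 23. Without 1 library and no block, genes called higher ranged from 0 to 1302, lower from 0 to 1046, and members higher from 0 to 26, the upper values all without TGF-β replicate 1. No filter, library totals without the block and limma on FPKM gave 0 calls, and no setting tried called a member lower. Fewer samples enter the left-out fits, and the cause of the other changes was not tested.

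The median of all 58 members lay between 0.16 and 0.32 over the settings tried. That of the 5 late small-subunit factors ranged from 0.13 to 0.36 without 1 library, and was 0.33 without replicate 1 both with the block and without it. The RNA polymerase I median was -0.015 with limma on FPKM and ranged from -0.011 to 0.18 without 1 library. Members near 0 changed sign. NOP2 ranged from -0.018 to 0.39 without 1 library and was -0.20 with the block without replicate 2. POLR1B ranged from -0.015 to 0.30 without 1 library, and was -0.14 with limma, -0.12 with the block without replicate 1 and -0.13 without replicate 1 and no block. UBTF ranged from -0.088 to 0.021, and was 0.0038 with the block without replicate 2. RRN3 was -0.015 with limma and ranged from -0.047 to 0.15, and TCOF1 ranged from -0.069 to 0.050 and was 0.10 with the block without replicate 3. Over the members the paired SE was lowest for NPM1 (0.05, with 4633 to 6055 counts per library) and highest for GAR1 (0.23, with 48 to 73 counts).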

Other observations

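The ribosome biogenesis pathway of the deposited KEGG annotation gave a further, separately named list, which shares 21 genes with the 58. This list also shares genes with the 137 other factors described above. Of its 58 genes that are not among the members, 51 were tested. In the paired edgeR fit 11 of these were called higher (21.6%, against 9.71% of all tested genes) and 1 lower (1.96%, against 8.04%), and their median unpaired difference was 0.16, beside -0.01 for all tested genes. TGF-β replicate 1 was the highest library of its group for 33 of the 51 (64.7%), against 39.1% of all tested genes. Without both libraries of replicate 2, or of replicate 3, the paired fit called 2 of the 51 higher (against 5.66% and 4.46% of all tested genes). In those fits the list thus held no larger share of higher calls than all tested genes.

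A low value in CXCL10 replicate 3 was seen in RRP9 as well as NOP2, both noticed after their values were seen. RRP9, a core protein of the U3 particle, stood at 16.2, 13.4 and 9.14 CPM in the libraries with CXCL10 and at 14.7, 9.09 and 11.6 CPM in those without, with a paired difference of 0.13 (SE 0.16, adjusted p = 0.644, edgeR).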
